A study of Arabidopsis thaliana with 18 samples.

Results

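The response of Arabidopsis thaliana leaves 12 h after estradiol was taken from 6 of the 18 RNA-seq libraries of the series, 3 sprayed with estradiol and 3 mock-sprayed. The libraries were chosen by treatment and time as their column names give them, and every gene that passed the filter on low counts was tested, 19227 in all. All plants, controls included, carried 2 transgenes in the ecotype Col-0 mutated at both loci (eds1-2 and pad4-1). One transgene makes PAD4 when estradiol is given, and the other makes EDS1 constitutively from the 35S promoter. Leaves of plants 4 weeks old, grown at 22 °C with 10 h of light, received 10 µM estradiol in the treated group and 0.2% DMSO in the mock group, both with 0.01% of the wetting agent silwet-77. The line overexpresses EDS1 in every library, and estradiol-treated leaves without the inducible transgene were not analysed here, so an effect of estradiol itself cannot be told apart from one of induced PAD4.

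PAD4 and EDS1 are lipase-like proteins of the plant immune system that bind each other. They act after intracellular receptors with a TIR domain have been activated, and their complex works with helper NLR receptors of the ADR1 family. In leaves the PAD4 branch is known for raising the defence hormone salicylic acid and for basal resistance to biotrophic pathogens.

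The 6 libraries held 24953957 to 36920880 gene counts, so that 3 counts in a library corresponded to 0.0813 to 0.120 CPM (counts scaled to a common library size) before normalization. Levels below are CPM normalized by the TMM factors of edgeR, which lay between 1.24 and 1.28 in these 6 libraries, and they compare libraries for one gene, not genes with each other. Leaf mesophyll markers summed to between 20800 and 24400 CPM, whereas the 7 flower and pollen markers reached at most 2.12 CPM together and the 5 seed markers 0.0474 CPM. The root markers RHD6 and EXPA7, the pollen markers VGD1 and MGH3 and the seed markers CRU3, OLEO1 and ABI3 had no count in any of the 6 libraries. Root markers were not all absent. The 6 of them summed to 28.3 to 33 CPM with estradiol and 29.2 to 32.8 CPM with mock, and 1 gene reached 25.3 CPM. The first principal component held 47.4% of the variance and separated the groups, with estradiol replicate 1 at -36.5, replicate 2 at -19.6 and replicate 3 at -6.68, against 16.3 to 27.1 in the mock libraries. Estradiol replicate 1 was the estradiol library furthest from mock for 78.3% of the genes called higher and 75% of those called lower. Results are therefore also given without it.

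PAD4, the induced gene, stood at 295, 275 and 354 CPM in the 3 estradiol libraries and at 15.8, 16.2 and 16.2 CPM in the 3 mock libraries. Every estradiol library lay above every mock library, and the mean was 19.1-fold higher (308 ± 40.9 against 16.1 ± 0.219 CPM, mean ± SD, n = 3; log2 fold change 4.26 ± 0.29 SE, adjusted p = 1.88e-07). Adjusted p-values come throughout from edgeR's quasi-likelihood test with Benjamini-Hochberg adjustment over all tested genes. Estradiol replicate 3, the estradiol library closest to mock on the first component, held the highest PAD4 level. EDS1 stood at 2836, 1722 and 1710.1 CPM with estradiol and 2694, 2741 and 1595 CPM with mock. Its groups overlapped, 1 estradiol and 2 mock libraries being high and the other 3 low, and it was not called (log2 fold change -0.17 ± 0.21 SE, adjusted p = 0.686). The neighbouring close copy AT3G48080 was at 8.49, 8.04 and 9.94 CPM with estradiol and 5.44, 4.36 and 6.18 CPM with mock (log2 fold change 0.72 ± 0.21 SE, adjusted p = 0.0356). Reads of the transgenes cannot be told apart from those of the mutated loci, and reads of the 2 EDS1 copies may have been divided between them.

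At an adjusted p below 0.05, 892 genes were higher in the estradiol libraries and 975 were lower, which is 4.64% and 5.07% of the tested genes. The counts of called members in lists and families below stand beside these shares. The rises were larger: the median size of the change was 0.51 on the log2 scale among the genes called higher and 0.31 among those called lower, and 222 rises but 19 falls reached 2-fold. The median log2 fold change over all tested genes was -0.01. Without adjustment 4651 genes had p below 0.05, and the estradiol and mock libraries did not overlap for 6056 genes, 31.5% of those tested. The counts depended on single libraries. Without estradiol replicate 1 there were 270 higher and 281 lower, of which 269 and 279 were among the genes called with all libraries. The higher calls fell to 582, 438 and 432 without mock replicates 1, 2 and 3, and the lower calls to 544 and 510 without mock replicates 2 and 3. Of the 892 and 975 genes 0 were called in the other direction when any of the 6 libraries was left out. Only 43 and 28 of them had overlapping groups, so this was nearly fixed by the calls and tests nothing. The rises of at least 2-fold fell to 73, 144 and 112 and the falls to 5, 8 and 13 without estradiol replicate 1, mock replicate 2 and mock replicate 3. Nothing in the labels says that the 3 replicates came from separate plants or sprays. The p-values rest on the spread among replicate libraries, estimated over all 18 libraries of the fit, and that spread may be technical.

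**Figure D1:**
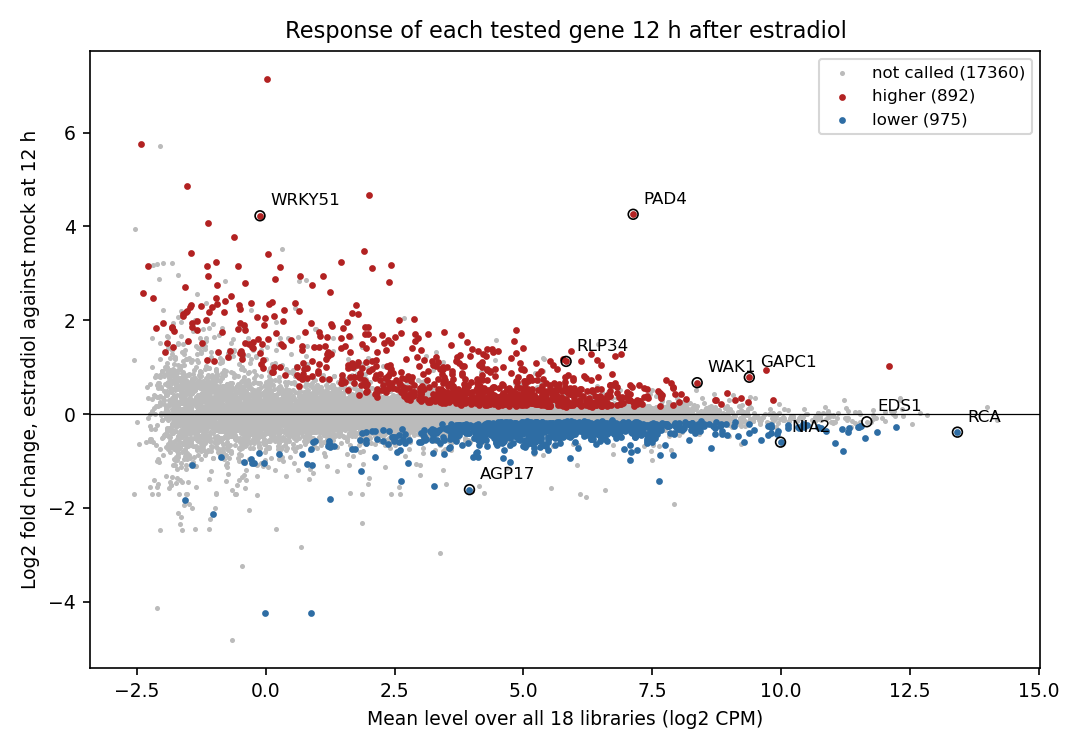
Log2 fold change between the 3 estradiol and 3 mock libraries of 12 h (vertical axis) against the mean level over all 18 libraries (horizontal axis, log2 CPM), with 1 point for each of 19227 tested genes. The 892 genes called higher (red) spread over all levels and reach large folds, whereas the 975 called lower (blue) lie mostly close to 0 and at high levels.

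Rises and falls differed in how abundant the genes were. The median level over all libraries was 4.15 log2 CPM for genes called higher, 5.48 for genes called lower and 3.85 for all tested genes. When the tested genes were divided into 10 equal bins by level, between 3.33% and 5.88% of each bin was called higher. The share called lower grew from 0.468% in the lowest bin to 14.2% in the highest. The median size of the called changes fell from 1.89 in the lowest bin to 0.294 in the highest. Smaller changes were thus called at high levels than at low ones. How far this shaped the shares called lower was not tested. Summed over genes, those called higher took 47514, 42106 and 39236 CPM in the estradiol libraries and 31429, 31117 and 30932 CPM in the mock libraries. Those called lower took 68157, 74628 and 76737 CPM with estradiol and 87973, 89874 and 94342 CPM with mock. In both sums estradiol replicate 1 lay furthest from mock. The calls chose these genes, so the sums describe how much of the transcript pool moved and test nothing.

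**Figure D2:**
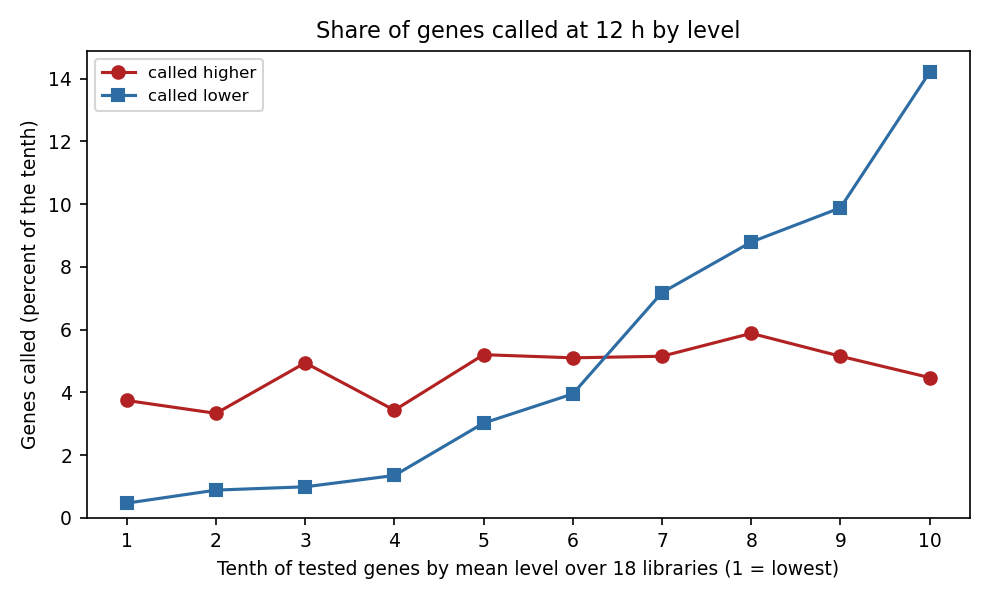
Percent of genes called higher (red circles) or lower (blue squares) at 12 h in each of 10 equal bins of the tested genes, ordered by mean level over the 18 libraries from lowest to highest. The share called higher stays between 3.33% and 5.88%, while the share called lower climbs from 0.468% to 14.2%.

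Among receptors at the cell surface, the leucine-rich receptor-like proteins, which lack a kinase domain and recognise molecules of microbes, had 15 of 47 tested members called higher and none lower, with a median log2 fold change of 0.24. The count lay between 10 and 15 when each of the 6 libraries was left out in turn, and was lowest without estradiol replicate 1. RLP34 was at 134, 113 and 135 CPM in the estradiol libraries and 59.1, 57.5 and 59.5 CPM in the mock libraries. The groups lay far apart, with a 2.18-fold higher mean (log2 fold change 1.12 ± 0.14 SE, adjusted p = 0.000174). RLP41 was at 13.5, 10.4 and 10.0 CPM against 4.4, 5.05 and 5.16 CPM (log2 fold change 1.22 ± 0.12 SE, adjusted p = 2.8e-05), and RLP33 at 19.5, 14.7 and 16.1 CPM against 8.7, 10.5 and 8.36 CPM (log2 fold change 0.88 ± 0.14 SE, adjusted p = 0.00091). RLP41 and RLP33 were higher in every estradiol library than in any mock library. RLP39 was at 1.94, 1.45 and 0.734 CPM against 0.285, 0.271 and 0.261 CPM (log2 fold change 2.35 ± 0.31 SE, adjusted p = 0.000237). RLP39 and RLP41 belong to a cluster of similar genes whose reads the counting could divide among copies. SOBIR1, the receptor kinase with which receptor-like proteins signal, was at 168, 132 and 156 CPM with estradiol and 86.2, 90.4 and 90.6 CPM with mock. It rose without overlap of the groups (log2 fold change 0.77 ± 0.10 SE, adjusted p = 0.000144).

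Receptor kinases were called in both directions. Of 133 tested leucine-rich repeat receptor kinases 13 were higher and 13 lower, with a median log2 fold change of -0.02. Without estradiol replicate 1 the counts were 6 and 3, without mock replicate 3 they were 6 and 8, and without mock replicate 2 they were 9 and 8. HAE, the receptor kinase HAESA that controls shedding of floral organs, was at 111, 98 and 97.3 CPM with estradiol and 68.2, 62.6 and 67.8 CPM with mock. All 3 estradiol libraries were higher (log2 fold change 0.62 ± 0.08 SE, adjusted p = 0.000127). AT4G08850, annotated as a leucine-rich repeat receptor kinase, was at 166, 128 and 131 CPM against 83.5, 79.1 and 82.9 CPM (log2 fold change 0.79 ± 0.11 SE, adjusted p = 0.000304). AT2G45340, of the same family, moved the other way, from 16.9, 19.3 and 19.4 CPM with mock to 11.7, 13.8 and 13.2 CPM with estradiol (log2 fold change -0.53 ± 0.08 SE, adjusted p = 0.000377). The cysteine-rich receptor kinases, a family with many members induced in defence, had 19 of 37 tested members higher and none lower, and between 13 and 17 higher with 1 library left out. CRK6 was at 42.1, 28.9 and 32.1 CPM against 11.3, 15.2 and 13.2 CPM (log2 fold change 1.38 ± 0.14 SE, adjusted p = 2.95e-05). Its tandem neighbour CRK7 was at 4.54, 3 and 2.72 CPM against 0.538, 0.632 and 0.379 CPM (log2 fold change 2.75 ± 0.27 SE, adjusted p = 2.8e-05). For both genes estradiol replicate 1 held the highest level and no mock library reached the lowest estradiol library. WAK1, a kinase bound to cell wall pectin, was at 697, 664 and 687 CPM against 392, 430.3 and 467 CPM (log2 fold change 0.67 ± 0.16 SE, adjusted p = 0.0136), and its adjusted p was 0.0637 without estradiol replicate 1.

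**Figure D3:**
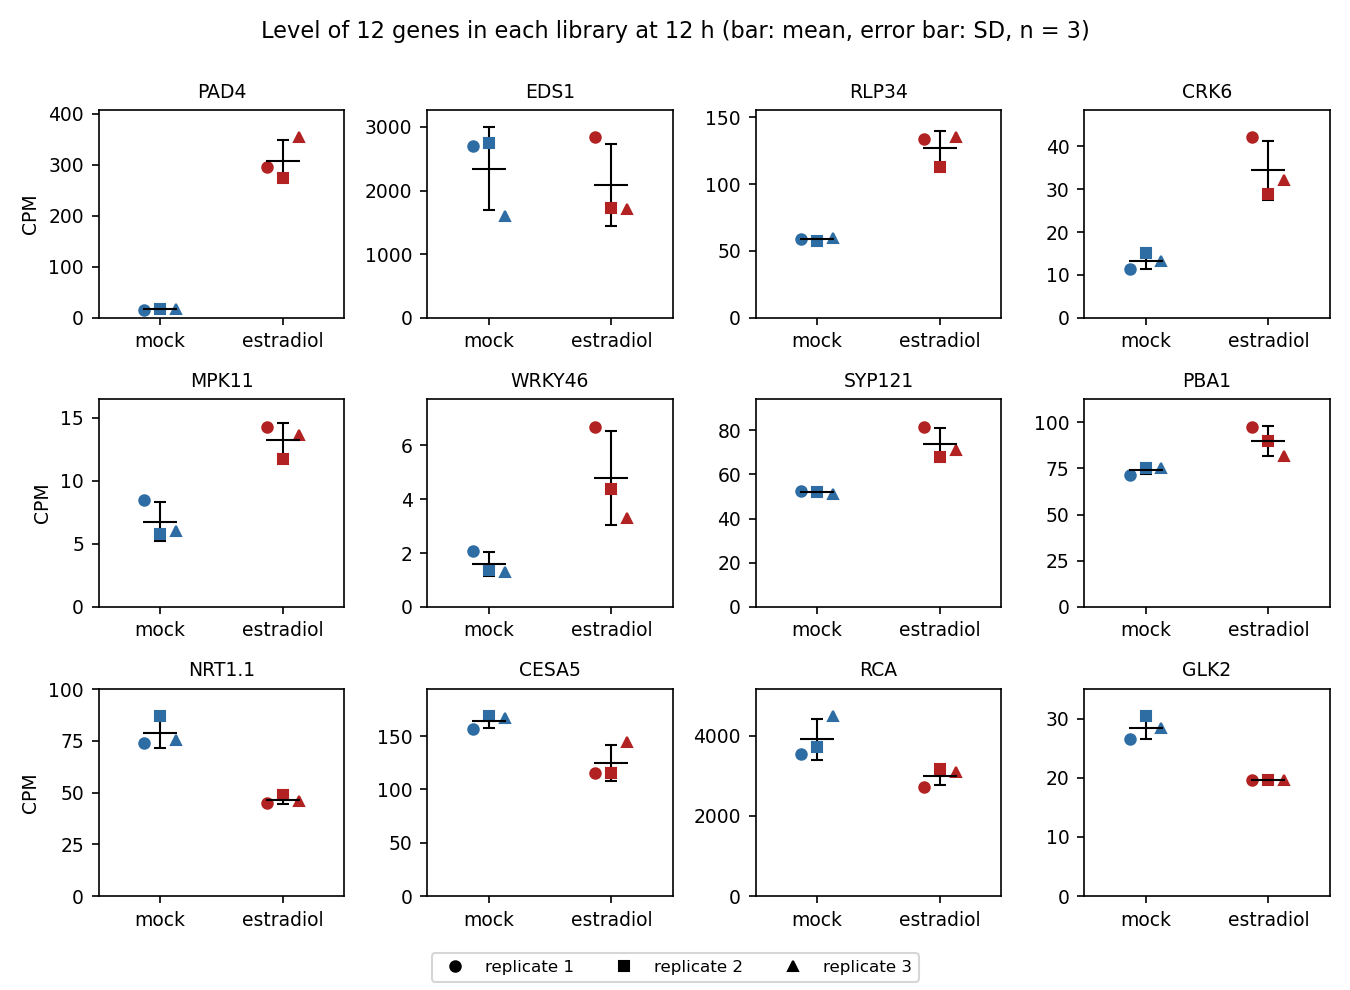
CPM of 12 genes in each library of 12 h, with mock in blue and estradiol in red, 1 marker shape per replicate number, a bar at the mean and an error bar of 1 SD (n = 3). PAD4 separates the groups by far more than its spread, EDS1 overlaps, 6 genes from RLP34 to PBA1 are higher with estradiol, and NRT1.1, CESA5, RCA and GLK2 are lower.

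Mitogen-activated protein kinases relay signals from such receptors. Of the 21 tested genes listed for this cascade, the transcription factors that it targets included, 10 were higher and none lower, with a median log2 fold change of 0.23. They were the kinase kinases MEK1, MKK2, MKK4, MKK5 and MKK9, the kinases MPK3, MPK4 and MPK11, and the factors WRKY25 and WRKY33. With 1 library left out 6 to 9 were called, with 6 both without estradiol replicate 1 and without mock replicate 2. MPK11, a close relative of MPK4, was at 14.3, 11.7 and 13.6 CPM with estradiol and 8.51, 5.78 and 5.99 CPM with mock. It was 1.96-fold higher, with no overlap (log2 fold change 0.97 ± 0.17 SE, adjusted p = 0.00206). MPK4 itself was at 75.9, 72.8 and 73.1 CPM against 63.6, 60.3 and 61.3 CPM (log2 fold change 0.26 ± 0.04 SE, adjusted p = 0.00155), a small change with very little spread between libraries. MKK9 was at 25, 23.6 and 21.2 CPM against 17.7, 14.8 and 15.3 CPM (log2 fold change 0.55 ± 0.11 SE, adjusted p = 0.00396). The MAP kinase family as a whole, with 20 tested members, had 3 higher and 3 lower and a median log2 fold change of 0.02. There were 2 higher and 1 lower without estradiol replicate 1 or mock replicate 2. The falls were MPK16, MPK18 and MPK19, and the last 2 had log2 fold changes of -0.40 ± 0.06 (adjusted p = 0.000497) and -0.40 ± 0.09 (adjusted p = 0.00775), with adjusted p-values of 0.00577 and 0.06 without estradiol replicate 1.

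Calcium signals travel beside this cascade. Of 24 tested genes of the calcium-dependent protein kinase family 5 were higher, or 20.8% beside 4.64% of all tested genes, and none lower. The count was 5 or 6 with each library left out in turn. CPK5, which phosphorylates the oxidase that makes reactive oxygen in defence, was at 125, 124 and 122 CPM with estradiol and 94.4, 88.2 and 104 CPM with mock. The groups did not overlap (log2 fold change 0.37 ± 0.07 SE, adjusted p = 0.00232). CPK9, CPK29 and CPK4 rose by 0.46 ± 0.06 (adjusted p = 0.000266), 0.61 ± 0.11 (adjusted p = 0.00189) and 0.37 ± 0.06 (adjusted p = 0.00091) on the log2 scale. DND1, the cation channel CNGC2 whose loss activates defence constitutively, was at 82.2, 92.0 and 92.4 CPM with estradiol and 123, 124 and 133 CPM with mock, so every estradiol library was lower (log2 fold change -0.51 ± 0.07 SE, adjusted p = 0.000203). CNGC4, which forms a channel with it, also fell (log2 fold change -0.31 ± 0.07 SE, adjusted p = 0.00797), whereas CNBT1 of the same channel family rose (log2 fold change 0.39 ± 0.07 SE, adjusted p = 0.00171).

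Intracellular receptors with a TIR domain act before EDS1 and PAD4. Of 90 tested genes with a TIR domain 18 were higher and 2 lower, with a median log2 fold change of 0.08, but 3 were higher without estradiol replicate 1, 8 without mock replicate 2 and 9 without mock replicate 3. Of the 2 lower, 1 was called without any 1 of the libraries other than estradiol replicate 2. A list of 15 tested TIR-NLR receptors had 0 higher and 1 lower, with a median log2 fold change of -0.01. Of these 15, 9 had a negative log2 fold change. With 1 library left out, the 1 fall was called only without estradiol replicate 2. AT2G20142, a gene for a protein with a TIR domain, was at 10.1, 7.79 and 5.84 CPM in the estradiol libraries and 2.56, 1.65 and 1.21 CPM in the mock libraries. It was among the 5 largest rises of genes without a symbol (log2 fold change 2.16 ± 0.28 SE, adjusted p = 0.000223). AT1G72900, of the same family, was at 21.5, 18.4 and 14.8 CPM against 12.0, 10.3 and 8.55 CPM (log2 fold change 0.84 ± 0.17 SE, adjusted p = 0.00524). AT4G19530, annotated as a TIR-NLR receptor, fell from 89.9, 88.8 and 103 CPM with mock to 62.8, 74.9 and 77.4 CPM with estradiol (log2 fold change -0.39 ± 0.07 SE, adjusted p = 0.00264), and TAO1, a TIR-NLR receptor for a bacterial effector, had a log2 fold change of -0.26 ± 0.08 (adjusted p = 0.036). Of 20 tested genes of the coiled-coil receptor family 3 were higher and 1 lower, with a median log2 fold change of 0.01. These are 15% and 5%, beside 4.64% and 5.07% of all tested genes. In this family 1 was higher without estradiol replicate 1. A separate list of 11 tested coiled-coil receptors had 2 higher, and none of these 11 was called higher by edgeR without estradiol replicate 1, mock replicate 1 or mock replicate 2. Without estradiol replicate 2 or 3 there was 1. ZAR1, of that list, which assembles into a membrane channel when activated, was at 268, 264 and 278 CPM against 209, 207 and 227 CPM (log2 fold change 0.33 ± 0.08 SE, adjusted p = 0.0149). AT5G66910, annotated as a coiled-coil receptor, was at 25.2, 26.2 and 26.3 CPM against 17.2, 15.2 and 20.2 CPM (log2 fold change 0.56 ± 0.11 SE, adjusted p = 0.00338). ADR1, a helper NLR receptor in the family of 20, was at 15.3, 14.1 and 14.6 CPM against 12.1, 11.3 and 10.4 CPM (log2 fold change 0.38 ± 0.09 SE, adjusted p = 0.0136). Its adjusted p was 0.09 without estradiol replicate 1. Partners of these receptors rose in 3 of 17 tested cases. NDR1, required by many coiled-coil receptors, was at 18.6, 18.5 and 17.8 CPM against 12.2, 11.7 and 13.8 CPM (log2 fold change 0.54 ± 0.12 SE, adjusted p = 0.0112), the co-chaperone SGT1A rose by 0.52 ± 0.09 (adjusted p = 0.00219) and RIN4, which several receptors guard, by 0.31 ± 0.08 (adjusted p = 0.0218) on the log2 scale. Without estradiol replicate 1, or without mock replicate 2, 1 of the 3 was called.

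Transcription factors of the WRKY family, which bind the W-box in promoters of defence genes, had 13 of 49 tested members higher and 1 lower. Between 8 and 18 were higher with 1 library left out, 8 without estradiol replicate 1 and without mock replicate 2. WRKY51, known as a negative regulator of jasmonate responses, had 72, 52 and 29 counts in the estradiol libraries and 3, 1 and 3 in the mock libraries. It was nearly silent without estradiol, so no fold is given (adjusted p = 2.8e-05). WRKY46 was at 6.7, 4.37 and 3.3 CPM against 2.09, 1.38 and 1.28 CPM, a 3.1-fold rise without overlap (log2 fold change 1.63 ± 0.24 SE, adjusted p = 0.00043). WRKY70, a factor of salicylic acid signalling that acts after EDS1 and PAD4, was at 128, 143 and 137 CPM against 52.8, 36.8 and 82.0 CPM. Its mock libraries spread more widely than its estradiol libraries, and the groups did not overlap (log2 fold change 1.25 ± 0.25 SE, adjusted p = 0.00429). SIB1, a VQ motif protein that binds WRKY33, was at 31.9, 27.8 and 26.3 CPM against 11.3, 9.51 and 13.1 CPM (log2 fold change 1.34 ± 0.16 SE, adjusted p = 0.000119). The NAC family had 11 of 65 tested members higher and none lower, and 4, 6 and 5 higher without estradiol replicate 1, mock replicate 2 and mock replicate 3. NAC036 was at 27.4, 25.7 and 25.9 CPM against 9.11, 11.4 and 12.2 CPM, a 2.41-fold rise without overlap (log2 fold change 1.27 ± 0.12 SE, adjusted p = 2.8e-05). ATAF2 and NAC102 rose by 0.94 ± 0.17 (adjusted p = 0.00255) and 0.72 ± 0.11 (adjusted p = 0.000481) on the log2 scale.

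Regulators of salicylic acid signalling rose in 6 of 19 tested cases, and 4 to 6 did so with 1 library left out. NPR3 and NPR4, salicylic acid receptors that repress defence genes, were both higher. NPR4 was at 35.6, 38.7 and 37.4 CPM against 22.6, 16.9 and 28.4 CPM (log2 fold change 0.71 ± 0.13 SE, adjusted p = 0.00219) and NPR3 at 31.2, 34.4 and 31.7 CPM against 22.4, 18.3 and 24.6 CPM (log2 fold change 0.57 ± 0.11 SE, adjusted p = 0.00372). NIMIN-2, a small protein that binds the receptor NPR1, was at 6.3, 6.4 and 5.96 CPM with estradiol and 2.09, 2.2 and 3.13 CPM with mock, and the groups lay well apart (log2 fold change 1.32 ± 0.16 SE, adjusted p = 0.000119). DMR6, an enzyme that hydroxylates salicylic acid and so lowers its level, was at 35.4, 32.4 and 33.2 CPM against 10.6, 13.1 and 17 CPM (log2 fold change 1.3 ± 0.15 SE, adjusted p = 5.7e-05). It was 2.47-fold higher in the mean, with no overlap.

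The W-box was counted in the promoters of the called genes. It was searched as TTGACC or TTGACT on both strands of the 250 bases before the annotated start of each protein-coding gene in RefSeq (build TAIR10.1). It was present in 403 of 891 promoters of genes called higher, or 45.2%, in 225 of 963 promoters of genes called lower, or 23.4%, and in 28.0% of the promoters of all tested genes and 28.5% of all 26711 promoters. Among the cysteine-rich receptor kinases it was present in 24 of 37 tested members, and in 12 of the 19 called higher. It was present in 8 of 15 called receptor-like proteins, 5 of 14 called proteasome genes, 4 of 14 called WRKY factors and 3 of 15 called carbon fixation genes. Among all tested members of these 4 groups it was present in 23 of 47, 9 of 30, 17 of 49 and 7 of 30. The called members thus lay near the share of their own group, and for the WRKY factors below it. TGACG, the core bound by TGA factors, was searched in the same way and was present in 23.9% of the promoters of genes called higher, 17.5% of those called lower and 18.6% of all promoters. In 21 promoters a match of one motif shared bases with a match of the other. These are counts of letters, with no measurement of binding. Of the 10 rises with the smallest p and a symbol, 3 held a W-box in this window. The following promoters are shown because their genes are among those described and hold the motif, with the W-box matches in capitals for CRK6, HAE and SYP121 and the TGACG matches, which overlap on opposite strands, in capitals for NIMIN-2. Each sequence runs 5′ to 3′ toward the gene and ends at the base before its annotated start.
CRK6 promoter, chr4:12121119-12121368, + strand, 2 matches: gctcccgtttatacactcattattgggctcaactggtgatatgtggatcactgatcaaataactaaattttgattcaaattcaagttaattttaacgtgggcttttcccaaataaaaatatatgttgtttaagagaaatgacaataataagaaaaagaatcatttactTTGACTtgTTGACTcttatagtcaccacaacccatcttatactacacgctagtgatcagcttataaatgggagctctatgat
HAE promoter, chr4:14077426-14077675, + strand, 3 matches: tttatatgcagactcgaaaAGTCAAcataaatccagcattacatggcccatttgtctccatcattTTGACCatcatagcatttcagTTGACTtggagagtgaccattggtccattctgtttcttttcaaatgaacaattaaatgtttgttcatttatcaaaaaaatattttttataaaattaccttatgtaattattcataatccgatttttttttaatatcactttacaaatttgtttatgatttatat
SYP121 promoter, chr3:3731252-3731501, - strand, 1 match: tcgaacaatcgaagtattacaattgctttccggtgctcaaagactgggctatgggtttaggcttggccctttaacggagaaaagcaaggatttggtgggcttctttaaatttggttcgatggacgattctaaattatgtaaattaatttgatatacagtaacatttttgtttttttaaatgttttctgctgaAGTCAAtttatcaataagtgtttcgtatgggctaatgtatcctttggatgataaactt
NIMIN-2 promoter, chr3:9471040-9471289, - strand, 2 matches: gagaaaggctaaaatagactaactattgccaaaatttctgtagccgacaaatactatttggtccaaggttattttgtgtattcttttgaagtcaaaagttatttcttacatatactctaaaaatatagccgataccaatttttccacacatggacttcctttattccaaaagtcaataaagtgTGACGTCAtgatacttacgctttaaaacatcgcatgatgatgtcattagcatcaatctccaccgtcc

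Genes for secretion and callose at sites of fungal entry were higher too. Of the 20 tested members of this list 8 were higher and none lower, with a median log2 fold change of 0.23, and 4 were higher without estradiol replicate 1 and 5 without mock replicate 3. SYP121, the syntaxin PEN1 that fuses vesicles with the plasma membrane, was at 81.7, 67.8 and 71.3 CPM with estradiol and 52.3, 52.1 and 51.2 CPM with mock. The lowest estradiol library exceeded every mock library (log2 fold change 0.51 ± 0.07 SE, adjusted p = 0.000426). Its membrane fusion partner SNAP33 was at 101, 89.9 and 92.4 CPM against 76.6, 74.5 and 76.1 CPM (log2 fold change 0.32 ± 0.06 SE, adjusted p = 0.00279), and the exocyst subunit EXO70E2 at 43.2, 39.1 and 37.3 CPM against 27.0, 24.2 and 27.5 CPM (log2 fold change 0.60 ± 0.10 SE, adjusted p = 0.00131). Both were higher in all 3 estradiol libraries. PLA2A, a lipid hydrolase induced in defence, rose by 1.02 ± 0.22 (adjusted p = 0.00666) on the log2 scale, but with an adjusted p of 0.0675 without estradiol replicate 1. The other 4 members called were PEN2, SYP122, EXO70B2 and MLO2.

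Factors of the unfolded protein response, by which the endoplasmic reticulum adjusts its folding capacity, had 7 of 19 tested members higher and none lower. Without estradiol replicate 1, and also without mock replicate 2, 1 of them was called, against 3 without estradiol replicate 2, 4 without mock replicate 1 and 3 without mock replicate 3. CRT3, a calreticulin that helps immune receptors to fold, was at 255, 242 and 269 CPM with estradiol and 201, 205 and 203 CPM with mock. The change was 1.26-fold, with no overlap (log2 fold change 0.33 ± 0.07 SE, adjusted p = 0.00537). BZIP17, a membrane-bound factor released under folding stress, was at 29.7, 31.0 and 27.9 CPM against 23.9, 22.8 and 25.8 CPM (log2 fold change 0.29 ± 0.07 SE, adjusted p = 0.0126), and its groups did not overlap.

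The proteasome, which degrades proteins marked with ubiquitin, had 14 of 30 tested members higher and none lower, the median log2 fold change of the 30 being 0.17. The count depended on single libraries: without estradiol replicate 1 only 1 member was called, against 3 without mock replicate 2, 5 without mock replicate 1, 6 without estradiol replicate 2, 8 without mock replicate 3 and 17 without estradiol replicate 3. PBA1, a catalytic subunit, was at 97.7, 90.1 and 81.8 CPM in the estradiol libraries and 71.7, 75.5 and 75.2 CPM in the mock libraries. All 3 estradiol libraries were higher, replicate 1 most (log2 fold change 0.28 ± 0.05 SE, adjusted p = 0.00384). The ATPase subunit RPT4A was at 49.9, 49.2 and 44.0 CPM against 39.8, 39.0 and 42.5 CPM (log2 fold change 0.24 ± 0.05 SE, adjusted p = 0.00611), and the core subunit PAE1 at 64.5, 55.0 and 53.7 CPM against 47.2, 48.4 and 49.2 CPM (log2 fold change 0.26 ± 0.06 SE, adjusted p = 0.0166). NAC053, a transcription factor that activates proteasome genes, was at 25.1 ± 5.33 CPM against 17.8 ± 0.775 CPM (mean ± SD, n = 3; log2 fold change 0.50 ± 0.11 SE, adjusted p = 0.00996). In these 3 genes too, estradiol replicate 1 was the highest library. The promoter element described for NAC053 targets has the core TGGGC. Searched on both strands of the same window, TGGGC was present in 16 of 30 promoters of the list and in 10 of the 14 called higher, against 26.3% of the promoters of tested genes, 22.9% of all promoters and 22.3% of the promoters of genes called higher. Matches were not excluded where they overlapped another motif. The promoters of 2 subunits are shown with TGGGC, or GCCCA on the other strand, in capitals. That of PBA1 holds 3 matches in a repeated stretch.
PBA1 promoter, chr4:15188494-15188743, + strand, 3 matches: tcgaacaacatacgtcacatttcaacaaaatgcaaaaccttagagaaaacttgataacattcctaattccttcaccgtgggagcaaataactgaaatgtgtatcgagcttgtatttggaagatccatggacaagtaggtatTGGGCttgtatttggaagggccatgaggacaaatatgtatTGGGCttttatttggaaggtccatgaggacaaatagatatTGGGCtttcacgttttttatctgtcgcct
PAE1 promoter, chr1:20106078-20106327, - strand, 1 match: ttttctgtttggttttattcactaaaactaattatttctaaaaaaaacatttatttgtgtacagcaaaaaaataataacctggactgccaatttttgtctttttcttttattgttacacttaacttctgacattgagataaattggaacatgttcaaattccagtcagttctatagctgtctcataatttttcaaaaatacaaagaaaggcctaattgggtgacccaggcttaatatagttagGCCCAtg

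Several groups held no called member or hardly any. Beside 4.64% higher and 5.07% lower over all tested genes, a list of 10 or 16 genes could hold none without standing out. None of 16 tested genes of jasmonate synthesis and none of 10 tested JAZ repressors was called by edgeR in either direction at an adjusted p below 0.05, with median log2 fold changes of 0.02 and -0.21. None of them had an unadjusted p below 0.05, and none was called by DESeq2 or limma-voom. Of 32 genes of DNA replication edgeR called none, with a median of 0.02, although 4 had an unadjusted p below 0.05, and DESeq2 called none and limma-voom 1. Of 25 subunits of photosystems I and II edgeR called none, with a median of -0.02, although 4 had an unadjusted p below 0.05 and DESeq2 and limma-voom called 2 each. Of 315 tested ribosomal protein genes 4 were higher and 2 lower, with a median of 0.09. The count higher was 0 by edgeR without estradiol replicate 1, estradiol replicate 2, mock replicate 2 or mock replicate 3 and 9 without estradiol replicate 3, and the count lower was 0 without estradiol replicate 1 or mock replicate 3 and 1 without mock replicate 2. GAPC1, the cytosolic glyceraldehyde-3-phosphate dehydrogenase of glycolysis, was the 1 gene called among 15 commonly used as references, at 905, 712 and 493 CPM with estradiol and 443, 409 and 372 CPM with mock. Its 3 estradiol libraries spread widely but did not overlap with mock (log2 fold change 0.78 ± 0.15 SE, adjusted p = 0.0028).

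**Figure D4:**
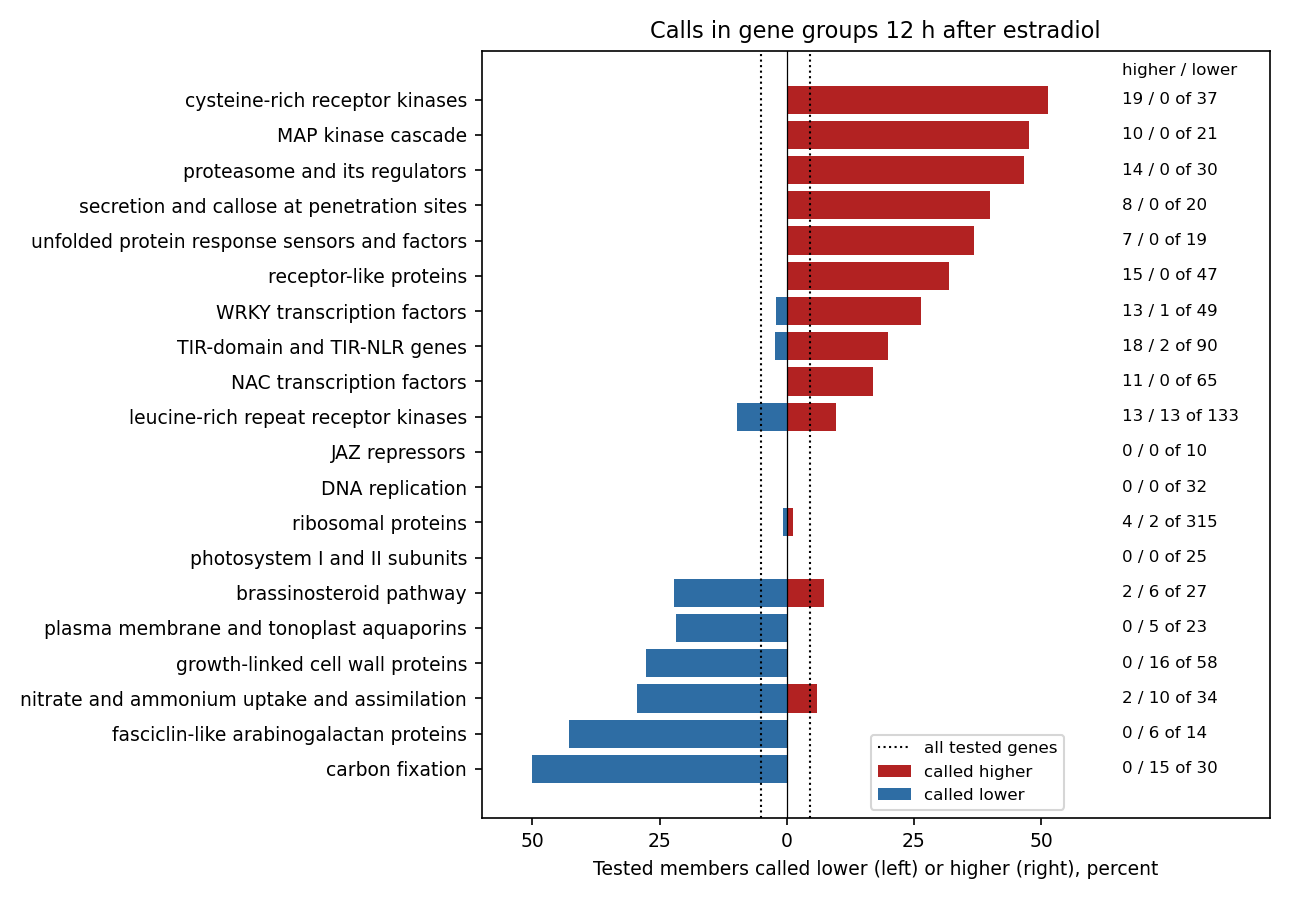
Percent of tested members called higher (red, to the right) or lower (blue, to the left) at 12 h in 20 gene groups, with the counts at the right edge and dotted lines at the share over all tested genes (4.64% higher, 5.07% lower). The upper groups hold receptor, signalling, secretion and proteasome genes called higher, the middle ones few or no calls, and the lower ones growth and carbon fixation genes called lower.

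The genes called lower included much of carbon fixation and photorespiration. Of 30 tested genes of that list, which covers the Calvin cycle, carbonic anhydrases, photorespiration and the GLK regulators, 15 were lower and none higher, with a median log2 fold change of -0.25. The share called lower was 5.07% over all tested genes but 14.2% in the highest of the 10 bins by level. Genes of the list such as RCA and AGT lie in that bin, and the part of level in this count was not tested. Without estradiol replicate 1 only 3 were called, and without mock replicate 3 only 6. Leaf mesophyll markers, of which RCA and GAPA are also in this list, summed to 20800 to 22300 CPM with estradiol and 22900 to 24400 CPM with mock. The groups did not overlap in this sum, and its part in the result was not tested. Of the 8 markers 2 were called lower and 1 higher, and none was at 0. The counts were 1 lower and 0 higher without estradiol replicate 1, and without mock replicate 3 there was 1 lower, and without estradiol replicate 2 there were 4 higher. In whole leaves, fewer cells of a type and less RNA per cell cannot be told apart. RBCS2B, a small subunit of Rubisco, was at 1315, 1356 and 1447 CPM with estradiol and 1827, 1869 and 2211 CPM with mock (log2 fold change -0.52 ± 0.09 SE, adjusted p = 0.00201). Small subunit genes are near-identical copies, so their separate levels are uncertain. RCA, the activase of Rubisco, was at 2725, 3165 and 3090.3 CPM against 3537, 3708 and 4497 CPM (log2 fold change -0.39 ± 0.08 SE, adjusted p = 0.0056). In both genes every estradiol library lay below every mock library. AGT, a transaminase of photorespiration, was at 1289, 1493 and 1437 CPM against 1655, 1736 and 1849 CPM (log2 fold change -0.31 ± 0.07 SE, adjusted p = 0.0061). GLK2, a transcription factor for chloroplast development, was at 19.7, 19.6 and 19.7 CPM against 26.6, 30.5 and 28.4 CPM, with almost no spread among its estradiol libraries (log2 fold change -0.54 ± 0.05 SE, adjusted p = 2.8e-05). Its adjusted p without estradiol replicate 1 was 0.000266. CAT2, the catalase that removes the peroxide made in photorespiration, was at 92.9, 109 and 94.1 CPM with estradiol and 153, 166 and 191 CPM with mock. It was 1.72-fold lower, with no overlap (log2 fold change -0.78 ± 0.10 SE, adjusted p = 0.000203).

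Of 23 tested antenna genes, whose proteins gather light for the photosystems, 1 was higher and 2 lower, shares of 4.35% and 8.7% beside 4.64% and 5.07% of all tested genes. None was called by edgeR in either direction without estradiol replicate 1, and without estradiol replicate 2 the count higher was 4. CAB2, which codes for a chlorophyll-binding protein, was at 159, 68.4 and 99.2 CPM with estradiol and 48.0, 67.0 and 46.2 CPM with mock, and its groups stood close without overlapping (log2 fold change 1.02 ± 0.22 SE, adjusted p = 0.00631). Its adjusted p was 0.0513 without estradiol replicate 1, and its reads may be divided among near-identical copies. Lhca6 and LHCB4.3, the 2 that fell, had log2 fold changes of -0.28 ± 0.06 (adjusted p = 0.0111) and -0.45 ± 0.10 (adjusted p = 0.00647), and adjusted p-values of 0.085 and 0.0501 without estradiol replicate 1.

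Genes of nitrogen uptake and assimilation were among the falls as well. Of 34 tested genes 10 were lower and 2 higher, with a median log2 fold change of -0.21, and 2 were lower without estradiol replicate 1 and 5 without mock replicate 2. NRT1.1, the nitrate transporter that also senses nitrate, was at 44.8, 48.8 and 45.8 CPM in the estradiol libraries and 73.9, 87.1 and 75.4 CPM in the mock libraries. The highest estradiol library was far below the lowest mock library, and the mean was 1.7-fold lower (log2 fold change -0.76 ± 0.09 SE, adjusted p = 7.44e-05). AT3G21670, annotated as a transporter of the major facilitator superfamily, was at 2.94, 4.15 and 3.09 CPM against 8.32, 8.39 and 10.4 CPM (log2 fold change -1.43 ± 0.15 SE, adjusted p = 2.8e-05). It was among the 5 largest falls of genes without a symbol. GLU1, the glutamate synthase of chloroplasts, was at 1772, 1999 and 2005 CPM against 2222, 2311 and 2493 CPM (log2 fold change -0.28 ± 0.06 SE, adjusted p = 0.00615), and ASN2, an asparagine synthetase, at 193, 197 and 264 CPM against 316, 369 and 299.8 CPM (log2 fold change -0.59 ± 0.12 SE, adjusted p = 0.00492). Neither gene had overlapping groups. The 2 genes that rose were WR3 and GSR 1, with mean levels of 22.3 and 148 CPM with estradiol against 14.2 and 96.7 CPM with mock. Neither was called without estradiol replicate 1 or without mock replicate 1, and 1 of them without estradiol replicate 2, mock replicate 2 or mock replicate 3. Amino acid carriers of the AAP and UMAMIT families had 6 of 36 tested members lower and none higher, UMAMIT44 and UMAMIT46 with log2 fold changes of -0.45 ± 0.08 (adjusted p = 0.00135) and -0.51 ± 0.09 (adjusted p = 0.00235). Without estradiol replicate 1, mock replicate 1 or mock replicate 2 there were 3.

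Genes for the growing cell wall were lower in 16 of 58 tested cases and higher in none, with a median log2 fold change of -0.26. With 1 library left out 7 to 18 were lower, with 7 without estradiol replicate 1, 8 without mock replicate 2 and 10 without estradiol replicate 2. Epidermis and trichome markers summed to 164 to 168 CPM with estradiol and 180 to 182 CPM with mock, without overlap, with GL1 at 0 and none of 5 tested markers called by edgeR, DESeq2 or limma-voom (2 with an unadjusted p below 0.05), and their part in the result was not tested. CESA5, a cellulose synthase of primary walls, was at 115, 115 and 144 CPM with estradiol and 157, 169 and 167 CPM with mock. Every estradiol library was lower (log2 fold change -0.40 ± 0.07 SE, adjusted p = 0.00255). CESA1, CEV1, CESA2 and CESA6, the other called cellulose synthases, were lower too, by 0.21 to 0.33 on the log2 scale. EXGT-A3, which cuts and rejoins xyloglucan, was at 50.9, 58.7 and 60.2 CPM against 75.6, 79.5 and 74.7 CPM (log2 fold change -0.44 ± 0.07 SE, adjusted p = 0.000892). FLA13, a fasciclin-like arabinogalactan protein, was at 49.9, 51 and 57.5 CPM against 66.3, 65.7 and 66.3 CPM (log2 fold change -0.33 ± 0.06 SE, adjusted p = 0.00197), and its family had 6 of 14 tested members lower, or 3 without estradiol replicate 1. Aquaporins, which let water through membranes as cells expand, were lower in 5 of 23 tested cases and higher in none. PIP1;4 was at 43.9, 44.0 and 45.4 CPM with estradiol and 64.1, 58.2 and 56.4 CPM with mock, a 1.34-fold fall with little spread (log2 fold change -0.42 ± 0.05 SE, adjusted p = 0.000185). With any 1 library left out, 2 or 3 aquaporins were called, 2 without estradiol replicate 1 and without mock replicate 2.

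Some genes of growth hormone and light signalling were lower. Of 27 tested genes of the brassinosteroid pathway 6 were lower and 2 higher, and 3 were lower without mock replicate 2. Neither rise was called without estradiol replicate 1, mock replicate 1 or mock replicate 3. BES1, the transcription factor of brassinosteroid responses, was at 168, 173 and 195 CPM with estradiol and 229, 225 and 222 CPM with mock, and BRI1, the receptor, at 82.7, 84.8 and 86.9 CPM against 98.1, 101 and 101 CPM. Both were lower in each estradiol library than in any mock library, with log2 fold changes of -0.33 ± 0.06 (adjusted p = 0.00123) and -0.24 ± 0.05 (adjusted p = 0.00631). PIN3, PIN4 and PIN7, carriers that export auxin, had log2 fold changes of -0.43 ± 0.07 (adjusted p = 0.00186), -0.32 ± 0.08 (adjusted p = 0.0235) and -0.29 ± 0.06 (adjusted p = 0.00835), and with SHY2 they were the 4 of 28 tested auxin genes that were called. The 4 made up 14.3% of the auxin list, beside 5.07% of all tested genes called lower. Of the 4, 1 was called without estradiol replicate 1, and 2 without estradiol replicate 2 or mock replicate 2. PHOT1, a blue light receptor, was at 129, 147 and 156 CPM against 187, 189 and 196 CPM (log2 fold change -0.41 ± 0.06 SE, adjusted p = 0.000426), and PHOT2, its relative, at 233, 271 and 276 CPM against 319, 338 and 341 CPM (log2 fold change -0.36 ± 0.07 SE, adjusted p = 0.00486). The estradiol libraries of both were all below mock, replicate 1 lowest. LGO, an inhibitor of cell division that favours giant cells, was at 18.5 ± 1.22 CPM with estradiol and 28.4 ± 1.72 CPM with mock (mean ± SD, n = 3; log2 fold change -0.62 ± 0.07 SE, adjusted p = 5.03e-05). It was 1 of 2 called among 34 tested genes of mitosis, both lower. That is 5.88% of the list, near the 5.07% called lower over all tested genes. The median log2 fold change of the 34 was 0.01, and 18 were positive.

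Genes without a symbol made up 421 of the 892 rises and 432 of the 975 falls. The largest rise among those with a mean level of at least 1 log2 CPM and no overlap was AT5G24200, annotated as an alpha/beta hydrolase, at 4.14, 2.84 and 1.77 CPM against 0.285, 0.301 and 0.332 CPM (log2 fold change 3.25 ± 0.39 SE, adjusted p = 0.000108). AT5G39670, annotated as a calcium-binding protein, was at 8.26, 6.32 and 3.61 CPM against 1.08, 0.662 and 0.426 CPM (log2 fold change 3.12 ± 0.35 SE, adjusted p = 5.8e-05). AT3G28580, annotated as a nucleoside triphosphate hydrolase, was at 8.56, 5.56 and 3.36 CPM against 1.2, 1.17 and 0.569 CPM (log2 fold change 2.61 ± 0.33 SE, adjusted p = 0.000144). In all 3 genes estradiol replicate 1 was the highest library, replicate 3 the lowest of its group, and no mock library overlapped. Of the called genes, 2 had no count in any mock library of 12 h and 2 no count in any estradiol library, so their fitted fold changes have no measured base.

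**Figure D5:**
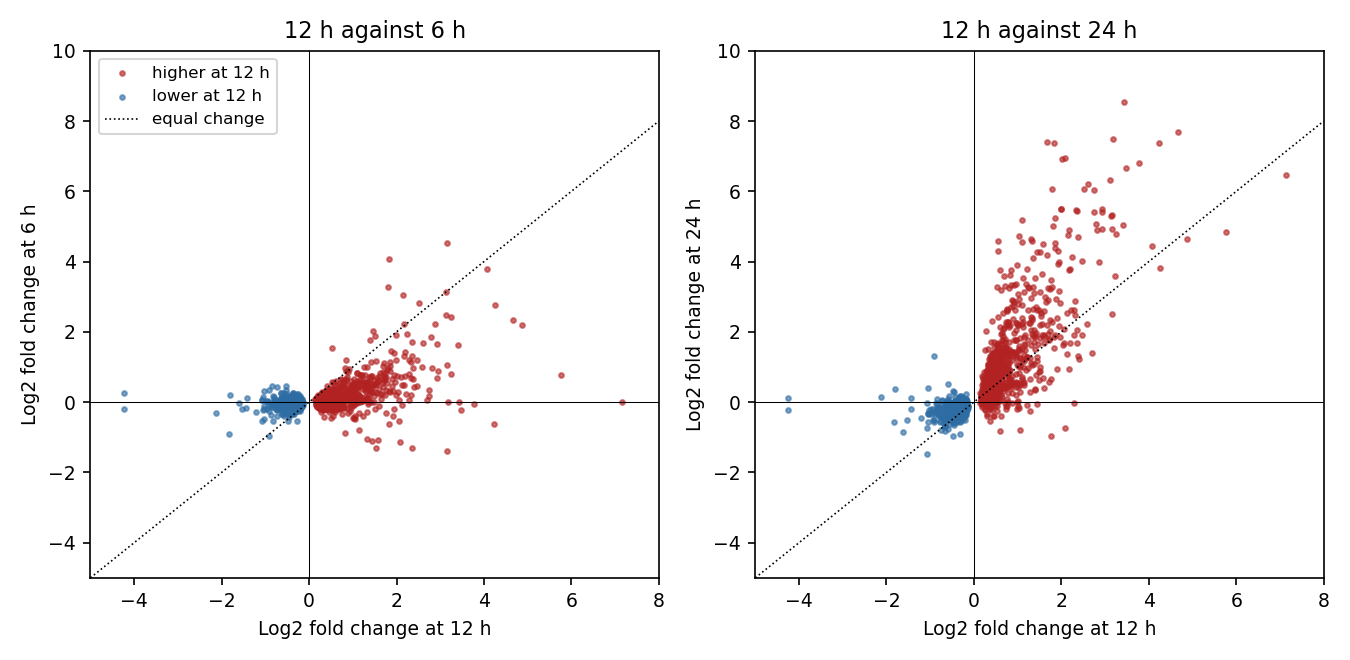
Log2 fold change at 6 h (left) and 24 h (right), on the vertical axes, against that at 12 h, on the horizontal axes, for the 892 genes called higher (red) and 975 called lower (blue) at 12 h. The points lie close to 0 at 6 h, and at 24 h many genes higher at 12 h lie above the dotted line of equal change.

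The libraries of 6 h and 24 h are other libraries, with controls of their own, and were not used to call the genes of 12 h, although one fit estimated the spread for all. At 6 h PAD4 averaged 215 CPM with estradiol and 31.5 CPM with mock, and 5 genes were higher and 2 lower at that time, 0.0364% of those tested. All 5 were among the 892 and 1 of the 2 among the 975, which is 0.561% and 0.103% of these lists. Of the 892 genes, 618 had a positive log2 fold change at 6 h, with a median of 0.08, and of the 975, 670 had a negative one, with a median of -0.04. At 24 h 15% of tested genes were called. There 586 of the 892 were higher again, 65.7% of the 12 h list and 36.2% of the 1620 genes higher at 24 h, and 6 were lower. Of the 975, 346 were lower again, 35.5% of the 12 h list and 27.5% of the 1257 genes lower at 24 h, and 1 was higher. The median log2 fold change of the 892 was 0.51 at 12 h and 0.64 at 24 h, and that of the 975 was -0.31 and -0.18. The calls at 12 h chose these genes, which favours larger changes at 12 h. The medians therefore describe the lists and test nothing.

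The difference between the effects at 12 h and at 6 h was called for 152 genes, 0.791% of those tested, and 144 of them were also called at 12 h. All 57 of these that were higher at 12 h had a larger log2 fold change at 12 h than at 6 h, and all 87 that were lower had a smaller one. The genes were chosen by their calls at 12 h, and hardly any gene was called at 6 h. The directions were thus nearly fixed by the choice and test nothing. The difference between 12 h and 24 h was called for 407 genes, or 2.12%, of which 211 were called at 12 h. Of the 179 of these that were higher at 12 h, 161 had a larger log2 fold change at 24 h and 18 a smaller one. Of the 32 that were lower at 12 h, 31 had the lower log2 fold change at 12 h and 1 at 24 h. The choice by calls at 12 h favours the larger change at 12 h here too. NUDT6, a hydrolase of nucleoside diphosphate compounds, rose by 1.1 at 12 h and 5.19 at 24 h, a difference of -4.09 ± 0.25 SE (adjusted p = 5.19e-08). BG3, a beta-1,3-glucanase, was at 103, 105 and 118 CPM with estradiol and 72.1, 72.5 and 79.1 CPM with mock at 12 h, a log2 fold change of 0.54, and rose by 4.59 at 24 h (difference -4.05 ± 0.29 SE, adjusted p = 1.5e-07). Both genes were higher at each of the 2 times, by more at 24 h. AT3G21670 and NRT1.1 went the other way, with log2 fold changes of -1.43 and -0.76 at 12 h and -0.19 and -0.17 at 24 h. Their differences were -1.23 ± 0.18 SE (adjusted p = 0.000543) and -0.59 ± 0.12 SE (adjusted p = 0.0126), so that both falls were larger at 12 h. CAT2 likewise had -0.78 at 12 h and -0.16 at 24 h (difference -0.62 ± 0.14 SE, adjusted p = 0.0256). Without mock replicate 3 of 12 h the difference from 24 h was called for 262 genes, and the difference from 6 h for 7 to 287 genes when 1 library of 12 h was left out, 7 without mock replicate 2, 17 without estradiol replicate 1, 62 without estradiol replicate 2, 71 and 72 without mock replicates 3 and 1, and 287 without estradiol replicate 3.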

How the data were processed

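RNA-seq libraries of leaves (TruSeq v2) were made for 3 replicates of each of 2 treatments at 6, 12 and 24 h. The deposited values are whole-number counts per gene, made by the authors with TopHat2 2.0.10, HTSeq and TAIR10 after FastQC 0.11.2, per the submitters' processing notes. For the annotation release, strand setting and counting mode nothing is given in the sources. The 5 class rows of the table, 5.87% to 6.71% of counts at 12 h, were left out.

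Counts were tested with edgeR 4.0.16 (R 4.3.3, limma 3.58.1) by the quasi-likelihood test on 6 group coefficients over all 18 libraries, with TMM scaling and filterByExpr (minimum count 10, minimum total 15), which left 19227 genes and 12 residual degrees of freedom. DESeq2 1.42.0, limma-voom, other scalings and filters, a replicate block and leaving out each library were alternatives. The scripts were tested on simulated data. The members and gene lists were chosen with earlier results of these data known. Lists are described by counts and medians, with no test of the list.

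Named genes were PAD4 and EDS1, the 10 rises and 10 falls with the smallest p, the 10 of each with the largest CPM difference, the 5 largest changes of each direction without a symbol, up to 4 called members per list or family, and up to 4 genes with a symbol per direction for each difference between times. All but PAD4, EDS1 and list members needed a mean of 1 log2 CPM and no overlap between groups. AT3G48080 was named as the close copy of EDS1. Other names, such as WR3, GSR 1 and the further cellulose synthases, were chosen after their values were seen. Promoters came from RefSeq (TAIR10.1), matched by locus.

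The labels do not say whether the replicate numbers pair the samples. Deviations of same-numbered estradiol and mock libraries from their group means at 12 h correlated at 0.171, -0.063 and 0.175. Pairs of unlike number lay between -0.271 and 0.114. Deviations within a group of 3 libraries depend on each other, so these values cannot decide the pairing.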

Additional observations from a re-analysis of the deposited data

Results flagged for a closer look

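The estradiol effect at 12 h differed from that at 6 h for 152 genes and from that at 24 h for 407 genes, by the test of the difference itself in edgeR's quasi-likelihood fit with Benjamini-Hochberg adjustment. The genes given here have a symbol, a mean level of at least 1 log2 CPM and groups that did not overlap at 12 h, and were called both at 12 h and for the difference. Up to 4 in each direction are given for each time, and genes outside these limits, such as AT3G21670 (-1.55 ± 0.18 SE against 6 h, adjusted p = 0.0021) and CRK7 (2.42 ± 0.53 SE, adjusted p = 0.0442), differed by as much or more than some of them. The causes were not tested.

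Against 6 h, 4 such genes had a larger effect at 12 h. PBS3, an enzyme of salicylic acid synthesis, differed by 1.74 ± 0.27 SE on the log2 scale (adjusted p = 0.0105), WRKY70 by 1.64 ± 0.36 (adjusted p = 0.0452), NIMIN-2 by 1.61 ± 0.35 (adjusted p = 0.0443) and SIB1 by 1.4 ± 0.24 (adjusted p = 0.0161). In the other direction AGP17, an arabinogalactan protein, differed by -1.58 ± 0.24 (adjusted p = 0.0105), ATTPPA, a trehalose phosphatase, by -0.81 ± 0.18 (adjusted p = 0.0475), DFL2 by -0.79 ± 0.16 (adjusted p = 0.0358) and the vacuolar exchanger NHX2 by -0.77 ± 0.16 (adjusted p = 0.0358).

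Against 24 h, the effect at 12 h was smaller for NIMIN1, with a difference of -5.75 ± 0.68 (adjusted p = 6.07e-05), for PR1 of -4.32 ± 0.97 (adjusted p = 0.0336), for NUDT6 of -4.09 ± 0.25 (adjusted p = 5.19e-08) and for BG3 of -4.05 ± 0.29 (adjusted p = 1.5e-07). At 24 h the mean mock level of NIMIN1 was 0.0474 CPM and that of PR1 0.183 CPM, so the sizes of these differences rest on few counts. The effect at 12 h was higher for the cold-induced gene COR15B by 1.41 ± 0.28 (adjusted p = 0.0105), for CAB2 by 1.18 ± 0.30 (adjusted p = 0.0469), for SOT16, a sulfotransferase of glucosinolate synthesis, by 0.92 ± 0.16 (adjusted p = 0.00262) and for LACS3 by 0.85 ± 0.18 (adjusted p = 0.0142). COR15B, SOT16 and LACS3 rose by 0.58, 0.37 and 0.46 at 12 h and were called lower at 24 h, at -0.82, -0.55 and -0.39. CAB2 was not called at 24 h (log2 fold change -0.16). Its mean mock level was 53.7 CPM at 12 h and 6755 CPM at 24 h, and that of COR15B 83.1 and 13.6 CPM. The effects of these 2 genes at the 2 times thus stand on unlike base levels. Without estradiol replicate 1 none of the 12 h rises of COR15B, CAB2, SOT16 and LACS3 was called (adjusted p = 0.176, 0.0513, 0.315 and 0.267).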

How the results depend on the processing

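With 1 library of 12 h left out, the number of genes called ranged from 270 to 1070 for rises, 281 to 1083 for falls, 73 to 327 and 5 to 19 for changes of at least 2-fold, 7 to 287 for the difference from 6 h and 262 to 378 for that from 24 h. An adjusted p below 0.01 left 322 rises and 355 falls, by fewer genes passing a stricter threshold. DESeq2 called 412 genes for the difference from 6 h, and the cause was not tested. Whether replicate numbers pair the libraries is not known. With replicate number as a block, 869 genes were higher and 773 lower, 231 and 14 of them by at least 2-fold. The differences from 6 h and 24 h were then called for 104 and 362. Other scalings, filters, tools and a fit of the 12 h libraries alone kept every other count within 1.5 times. No named gene changed direction under any alternative. Nearly all were named because they were called at 12 h, so this was close to fixed in advance and tests nothing. Of 336 named genes 161 lost their call without estradiol replicate 1, 110 without mock replicate 3, 96 without mock replicate 2, 60 without estradiol replicate 2, 59 without mock replicate 1 and 27 with the block. List counts with 1 library left out were added after seeing the data. Depth limits genes near 3 counts per library.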
